A study of Sus scrofa with 21 samples.

Results

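Platelet RNA divided the catheter libraries of this pig RNA sequencing series into a platelet-rich class of 7 and a platelet-poor class of 6. The members were chosen by a measured value of these same libraries, the level of TUBB1, the beta-tubulin of the ring of microtubules under the platelet membrane. Levels are CPM, the estimated counts of a gene scaled to a common library size by TMM over all 21 libraries. Libraries with TUBB1 above 1000 CPM are called platelet-rich and those below 400 CPM platelet-poor. They are 13 of the 14 catheter libraries and of the 21 libraries of the series. The remaining catheter library, microbrush 4, held counts for 3831 genes, under the minimum of 5000, and was left out. Since TUBB1 chose the classes, and each gene was read in the same libraries, every difference between the classes is given as a description without a test.

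The study asked whether a 3D-printed microbrush, moved through a vessel on a catheter, could collect endothelial cells. The microbrush was used in vessels of the kidney or the liver, and a plain Nitinol wire served as its negative control. Aorta taken by surgery was the positive control, and whole blood was sequenced beside it. All catheter libraries were of pigs 243K and 248K, the blood libraries of the same pigs, and the aorta libraries of another animal, pig 237053, so pig and tissue cannot be told apart between blood and aorta. The platelet-rich class held microbrush 1 (kidney, pig 248K), microbrush 6 (liver, 243K), microbrush 8 (liver, 248K) and all 4 wires, which were wire 1 (liver, 243K), wire 2 (kidney, 248K), wire 3 (liver, 248K) and wire 4 (kidney, 243K). The platelet-poor class held 6 microbrush libraries, which were microbrush 2, 5 and 10 (kidney, 243K), microbrush 3 (kidney, 248K), microbrush 7 (liver, 248K) and microbrush 9 (liver, 243K). Device was therefore unevenly spread over the classes, and counts for the microbrush alone, 3 libraries against 6, are given beside those of gene lists. Libraries of 1 pig are not separate animals, so p-values measure the spread between libraries, which may be technical.

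Platelets are fragments of megakaryocytes without a nucleus. They carry RNA made in the parent cell, store clotting and growth factors in granules, and stick to exposed matrix and fibrinogen through surface glycoproteins and integrins. Inside a vessel they settle on damaged wall and on foreign surfaces such as metal or plastic, where red and white cells can be trapped with them.

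Total counts ran from 1862826 to 11128399 in the platelet-rich libraries and from 1144949 to 7532584 in the platelet-poor ones. Wires 2 and 3 and microbrush 6 had the fewest genes of the 13, with 9714, 10165 and 12651 genes detected. At an equal depth of 1000000 counts, 8891 to 18264 genes (median 14955) would be detected in the platelet-rich libraries, against 13050 to 19534 (median 18779) in the platelet-poor ones. A pair of abundant identifiers without a name, ENSSSCG00000018063 and ENSSSCG00000018061, took 26.6% to 49.2% of the counts in the platelet-rich libraries and 2.66% to 15.1% in the platelet-poor ones, with no overlap. Haemoglobin genes took 0.0488% to 3.13% (median 0.328%) against 0.0129% to 0.142% (median 0.0627%). These measures moved with the classes, and their part in the results below was not tested.

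TUBB1 (Sscrofa11.1 chromosome 17, 59161420 to 59168385, coordinates of RefSeq matched by symbol) stood at 9731 CPM in wire 3 and 8516 CPM in microbrush 6. It was 1986 CPM in wire 2, 1976 in microbrush 1, 1779 in microbrush 8, 1512 in wire 1 and 1411 in wire 4, the lowest platelet-rich library. In the platelet-poor class it was 369 CPM in microbrush 7, the library just under the limit, then 223 in microbrush 2, 184 in microbrush 10, 157 in microbrush 5, 140 in microbrush 3 and 7.74 in microbrush 9. No library lay between 400 and 1000 CPM. Wire 3 and microbrush 6 stood apart at the top and microbrush 9 at the bottom. The TMM factors of wire 3 and microbrush 6 were 0.307 and 0.326, the lowest of the 13 libraries. Those of the other platelet-rich libraries were 0.5475 (microbrush 1) to 0.9304 (microbrush 8). A low factor raises every CPM of its library, so part of the gap at the top comes from the scaling. Whole blood held 285 CPM in blood 1 and 95.9 CPM in blood 3, and aorta 11.2 to 33.7 CPM. Both blood libraries lay under the limit of 1000 CPM, so by the rule each platelet-rich library lay above them. Blood 2, with 302 genes, was not used.

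**Figure D1:**
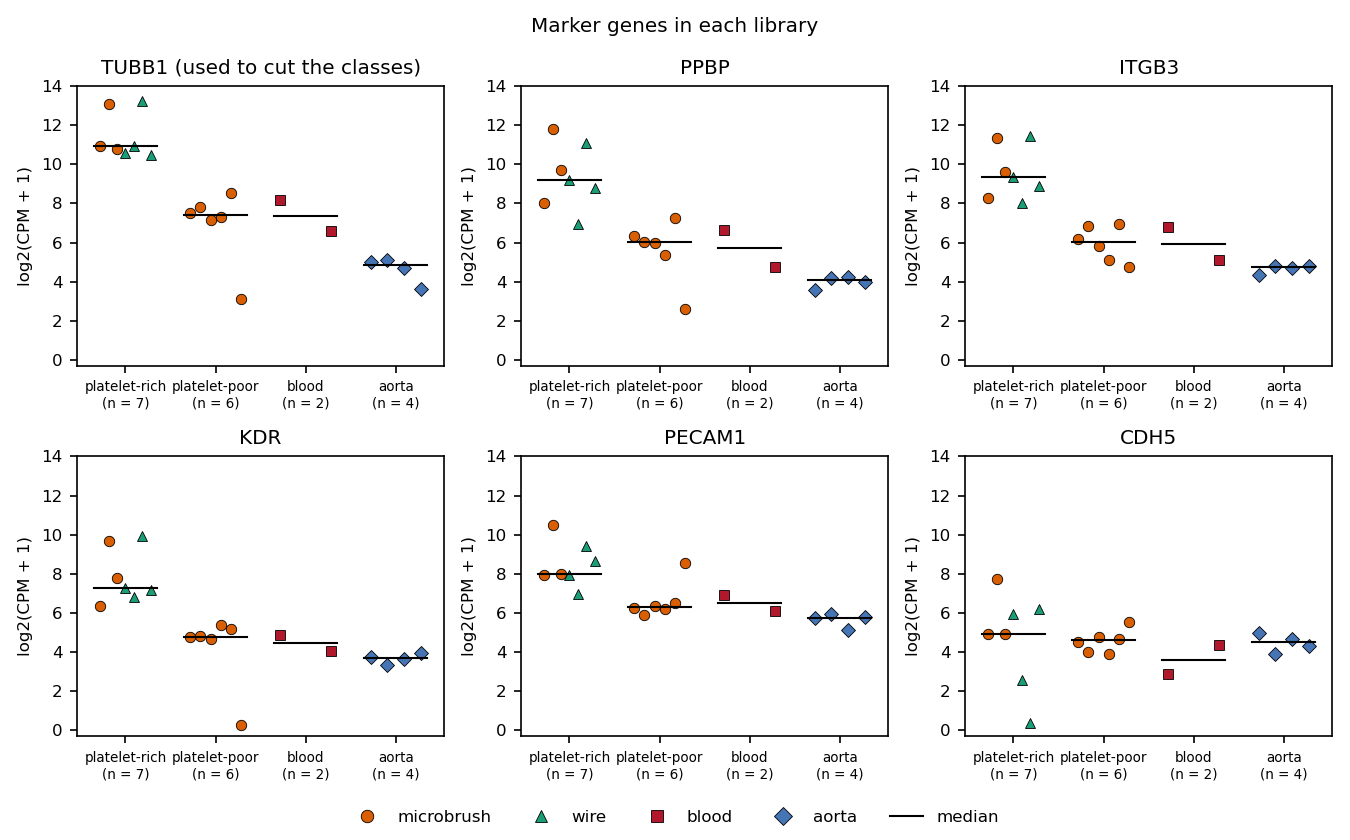
Levels of the 5 marker genes and of CDH5 on a log2(CPM + 1) scale, 1 point per library, with the median of each class as a line. TUBB1 cut the classes, KDR and ITGB3 also divide them without overlap, PPBP and PECAM1 overlap through wire 2 and microbrush 9, and the CDH5 levels of the classes lie over each other.

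PPBP (chromosome 8, 70021468 to 70022490), the platelet chemokine stored in alpha granules, was highest in microbrush 6 at 3557 CPM and wire 3 at 2166 CPM. It was 833 CPM in microbrush 8, 594 in wire 1, 445 in wire 4, 256 in microbrush 1 and 123 in wire 2. In the platelet-poor class it was 150 CPM in microbrush 7, 81.1 in microbrush 10, 64.6 in microbrush 2, 61.8 in microbrush 3, 40.0 in microbrush 5 and 5.02 in microbrush 9. The classes overlapped by 1 pair only, wire 2 under microbrush 7, and did not overlap among the microbrush libraries. The mean of log2(CPM + 1) was 3.77 higher in the platelet-rich class, with 1.99 among kidney libraries and 5.53 among liver libraries. Here and below, the liver value rests on 2 platelet-poor libraries, microbrush 7 and microbrush 9, and microbrush 9 held the least PPBP. The organs were not compared.

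ITGB3 (chromosome 12, 16694466 to 16752228), the beta-3 subunit of the fibrinogen receptor, gave 254 CPM (wire 2) to 2755 CPM (wire 3) with a median of 646 in the platelet-rich class. The platelet-poor libraries gave 25.7 CPM (microbrush 9) to 123 CPM (microbrush 7), and the classes did not overlap. The difference was 3.61 on the log2 scale, 2.41 in the kidney and 4.57 in the liver. Without microbrush 9, whose TUBB1, PPBP and ITGB3 were the lowest of all 13, the differences of PPBP and ITGB3 were 3.17 and 3.37.

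Over all 16477 genes that passed the filter on low counts, the classes did not overlap for 280 genes that were higher in the platelet-rich libraries (1.7%, TUBB1 among them) and for 60 that were lower (0.364%). In the microbrush alone the counts were 577 (3.5%) and 216 (1.31%). The median gene was lower by 0.62 on the log2 scale in the platelet-rich class, so medians of gene lists are given below also relative to that shift. The balance of higher and lower genes depended on the scaling and the stratum, with 99 higher and 683 lower without scaling, 213 lower with RLE scaling, and 1326 higher and 2149 lower within pig 248K. Fewer libraries make non-overlap easier, so the counts in a stratum, in the microbrush alone or without a library cannot fall. The count of lower genes was 207 without microbrush 1, 160 without microbrush 9, 150 without microbrush 8 and 96 without wire 1. Without wire 3 and microbrush 6, the most platelet-rich libraries, 295 genes were higher and 78 lower.

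Platelet genes were higher together. Of 66 genes on lists of platelet granule proteins, surface receptors, cytoskeleton and signalling, TUBB1 aside, 25 were higher without overlap (beside 1.7% of all genes) and 0 were lower. Their median difference was 2.17, or 2.79 above the median gene, and 56 of 66 differences were positive. In the microbrush alone 35 were higher without overlap, beside 3.5% of all genes, with a median of 2.28. The median was 1.52 without wire 3 and microbrush 6, 1.56 in the kidney, 2.51 in the liver, 2.11 in pig 243K and 1.78 in pig 248K.

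Among 13 granule genes, F13A1, SELP, THBS1 and CLU were higher without overlap, beside 1.7% of all genes. In the microbrush alone 6 were, beside 3.5%. The median difference was 2.28, or 2.90 relative to the median gene. F13A1, the A subunit of clotting factor XIII that crosslinks fibrin, was 2274 to 15454 CPM in the platelet-rich class (median 2724) and 12.1 to 617 CPM in the platelet-poor class (median 228). All 7 platelet-rich libraries exceeded blood, where it was 606 and 177 CPM. THBS1, thrombospondin 1 of the alpha granules, was 879 to 5396 CPM against 105.1 to 517 CPM. SELP, the adhesion receptor P-selectin of granule membranes, was 42.7 to 492 CPM against 4.18 to 35.1 CPM. SPARC, a matrix protein that platelets also store, went the other way, with 0 counts in wire 2, 0.293 CPM in wire 3 and 4896 CPM in microbrush 9, and its classes overlapped.

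Of 19 surface receptor genes, 8 were higher without overlap, beside 1.7% of all genes. They were ITGB3, GP1BB, GP9, GP6, ITGA6, CD226, TREML1 and MPIG6B. The median difference was 2.33, or 2.95 relative, and 12 were higher without overlap in the microbrush alone, beside 3.5%. GP1BB and GP9, parts of the receptor for von Willebrand factor, were 48.5 to 333 CPM against 0.512 to 14.3 CPM, and 23.5 to 183 CPM against 4.61 to 22.8 CPM. GP6, a collagen receptor, was 15.0 to 90.6 CPM against 0 to 6.71 CPM. TREML1, a receptor held in alpha granules until platelets are activated, was 98.1 to 643 CPM against 0 to 27.6 CPM, and microbrush 9 had 0 counts of it and of GP6. CLEC1B, the platelet receptor of podoplanin, overlapped through wire 2 alone, which held 2.71 CPM while the other platelet-rich libraries held 12.8 to 353 CPM. JAM3 and CD9, which other cells of the vessel also make, had differences of -0.49 and -0.22.

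Of 16 cytoskeleton and adhesion genes beside TUBB1, 7 were higher without overlap, against 1.7% of all genes. They were TUBA4A, MYH9, ZYX, FERMT3, PARVB, PDLIM1 and TPM4. In the microbrush alone 8 were, against 3.5%. The median difference was 2.38, or 2.99 relative. TUBA4A, an alpha-tubulin, was 295 to 2277 CPM against 1.88 to 106.4 CPM. FERMT3, or kindlin-3, which activates integrins in blood cells, was 352 to 2461 CPM against 8.37 to 103.98 CPM. MYH9, the non-muscle myosin heavy chain, was 6203 to 41622 CPM against 690 to 5976 CPM, and the margin between the classes was narrow. FLNA, filamin A, which smooth muscle also makes, overlapped widely and had a difference of -0.42, with 26910 CPM in the platelet-poor microbrush 5.

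Of 18 signalling genes, 6 were higher without overlap, beside 1.7% of all genes, and 9 in the microbrush alone, beside 3.5%. The 6 were RAP1B, GNAZ, PLEK, PLCG2, SYK and RGS18. The median difference of the list was 1.5, or 2.12 relative. PLEK, pleckstrin, a main target of protein kinase C in platelets, was 468 to 4258 CPM against 23.6 to 145 CPM. RGS18, a regulator of G-protein signals, was 190 to 4101 CPM against 1.25 to 155 CPM. RAP1B, a small GTPase upstream of integrin activation, was 108.6 to 1868 CPM against 7.99 to 100 CPM. Of 11 megakaryocyte transcription factors, 0 were without overlap over the 13 libraries. In the microbrush alone 4 were higher without overlap, beside 3.5% of all genes. The medians were 1.05 (1.67 relative) over the 13 libraries and 1.46 in the microbrush alone. GATA1, the erythroid and megakaryocyte factor, was 3.44 to 90.8 CPM against 0 to 4.43 CPM, so that wire 1 alone reached into the platelet-poor range.

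**Figure D2:**
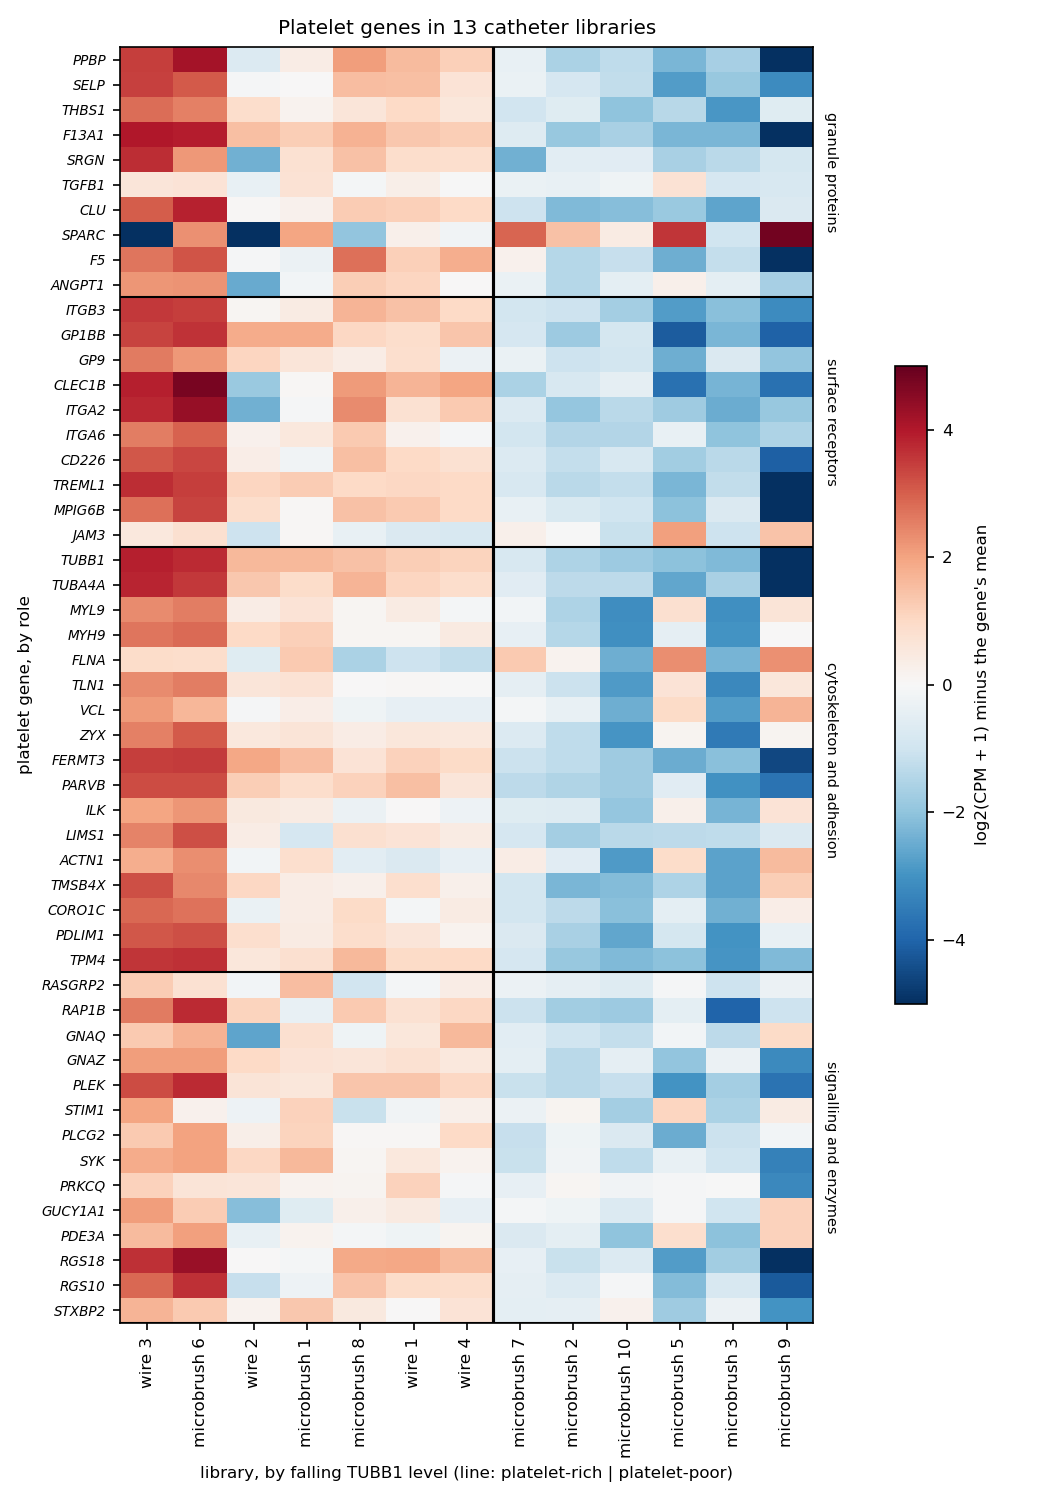
Platelet genes by role in the 13 catheter libraries, ordered by falling TUBB1, as log2(CPM + 1) minus the mean of the gene over these libraries. Wire 3 and microbrush 6 are red in most genes, microbrush 9 is blue in genes such as F13A1, PPBP and TREML1, and SPARC and FLNA run against the rest.

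The genes with the largest class difference beside TUBB1 were ICAM3 (4.89), F13A1 (4.63), ADAMTS19 (4.50), COTL1 (4.46), GP1BB (4.33), SH3BGRL2 (4.15), BNIP3L (4.12), RGS18 (4.11), TUBA4A (4.10), FERMT3 (4.09), NHERF1 (3.93) and DRC1 (3.92). ICAM3, an adhesion molecule of white cells, was 12.7 to 220 CPM in the platelet-rich class and 0 to 7.68 CPM in the platelet-poor class, and was at 0 in microbrush 2, 9 and 10. COTL1, an actin-binding protein of blood cells, was 1146 to 10312 CPM against 15.9 to 387 CPM. BNIP3L, which removes mitochondria from maturing red cells, was 550 to 11112 CPM against 76.3 to 377 CPM. ADAMTS19, a secreted metalloprotease, was 34.4 to 302 CPM against 0 to 9.55 CPM. Of the 279 higher genes without TUBB1, 245 had a symbol, 25 stood on the platelet lists and 40 on any list.

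The ratio of other genes to TUBB1 is given as a description only, since TUBB1 chose these libraries. Likeness was measured as the SD of the log2 ratio to TUBB1, a measure chosen after values were seen, and its median over 10997 named genes was 3.35. The most alike were F13A1 (0.222), TUBA4A (0.397), TREML1 (0.464), COTL1 (0.571), FERMT3 (0.583), KDR (0.674), SH3BGRL2 (0.735), MPIG6B (0.824), NHERF1 (0.867), RGS18 (0.884), PPBP (0.909) and AVIL (0.913). F13A1 stood at 115.1% to 182% of the TUBB1 level in each library, including 157% in microbrush 9, where TUBB1 was lowest. PPBP varied more, from 6.18% of TUBB1 in wire 2 and 12.9% in microbrush 1 to 64.9% in microbrush 9. The libraries share their scaling, and a percent of TUBB1 within a library does not depend on it.

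KDR (chromosome 8, 41809116 to 41856379), the VEGF receptor commonly read as an endothelial marker, ranked 6 on that measure. It was 997 CPM in wire 3, 809 in microbrush 6, 219 in microbrush 8, 157 in wire 1, 141 in wire 4, 110 in wire 2 and 81.9 in microbrush 1. The platelet-poor libraries held 41.0 CPM in microbrush 5, 35.5 in microbrush 7, 27.2 in microbrush 2, 26.3 in microbrush 10, 24.4 in microbrush 3 and 0.209 in microbrush 9. The classes did not overlap, and the difference was 3.68 (1.86 in the kidney, 5.95 in the liver, 2.90 without microbrush 9). The platelet-poor libraries behind the liver value were microbrush 7 and 9 alone. Relative to TUBB1 it was 4.14% to 12.3% in the platelet-rich class, and 2.70% (microbrush 9) to 26.1% (microbrush 5) in the platelet-poor class.

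CDH5, the VE-cadherin of endothelial junctions (chromosome 6, 27108560 to 27142145), did not follow KDR. It was 215 CPM in microbrush 6 but 0.293 CPM in wire 3 and 4.87 CPM in wire 2, against 13.8 to 45.8 CPM in the platelet-poor class. Its ratio to TUBB1 ran from 0.00301% in wire 3 to 592% in microbrush 9. The class difference of CDH5 was 0.09, and turned to -0.10 with RLE scaling and -0.64 without scaling.

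**Figure D3:**
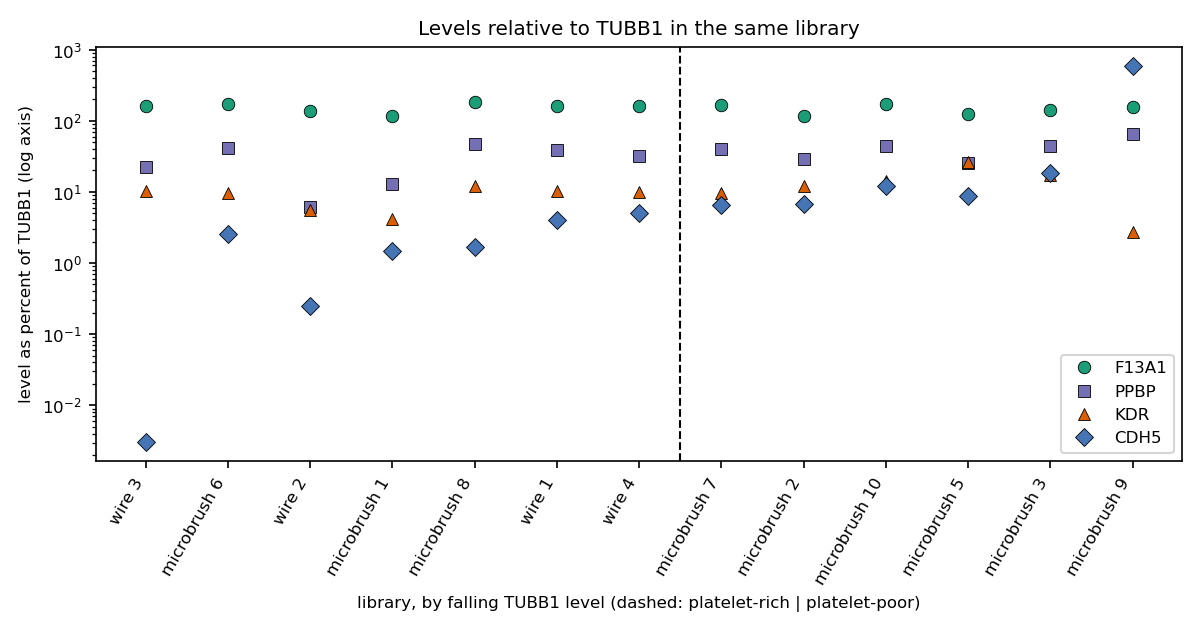
Levels of F13A1, PPBP, KDR and CDH5 as percent of TUBB1 in the same library, on a log axis, with libraries in order of falling TUBB1 and the class limit dashed. F13A1 stays between 115.1% and 182%, KDR between 2.70% and 26.1%, and CDH5 spans from 0.00301% to 592%.

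PECAM1 (chromosome 12, 14667643 to 14723296), which endothelium, platelets and white cells all carry, was 127 CPM (wire 2) to 1446 CPM (microbrush 6) in the platelet-rich class, with a median of 253. The platelet-poor libraries held 59.2 to 91.0 CPM, except microbrush 9 at 370 CPM, which made the classes overlap. The difference was 1.86, and 2.24 without microbrush 9. Its rank of likeness to TUBB1 was 829, against 30 for ITGB3 and 6425 for CDH5.

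Of 33 endothelial genes, KDR and PLVAP were higher without overlap (beside 1.7% of all genes), 0 were lower, and 13 differences were positive. In the microbrush alone 2 were higher without overlap, beside a share of 3.5%. PLVAP, a protein of the diaphragms of endothelial pores, was 76.9 to 290 CPM against 15.1 to 52.1 CPM. The median difference was -0.26, which was 0.36 above the median gene. It was 0.57 in the microbrush alone, 0.75 without wires 2 and 3, 1.34 in pig 243K and -1.52 in pig 248K. The summed level was 849 to 6431 CPM in the platelet-rich class and 1026 to 3105 CPM in the platelet-poor class. NOS3, the endothelial nitric oxide synthase, ERG, an endothelial transcription factor, and ECSCR and EMCN, both endothelial surface proteins, were at 0 in wires 2 and 3. Of 34 endothelial genes in the table, 17 and 16 were at 0 in these wires, against 0 to 2 in the other 11 libraries. These wires held counts for only 9714 and 10165 of all 24358 genes, so zeros were common there for any kind of gene. Of 21 hepatocyte genes 14 and 19 were at 0 in wires 2 and 3, and of 21 kidney genes 14 and 20. A count of 0 allows up to 1.62 CPM in wire 2 and 0.878 CPM in wire 3, the level of 3 counts, which covers counting error only. In the same 2 libraries KDR was 110 and 997 CPM, PLVAP 99.6 and 290 CPM and PECAM1 127 and 686 CPM. NOS3 was highest in microbrush 6 at 723 CPM, and was 185 CPM in microbrush 9. Levels of endothelial genes thus varied within the platelet-rich class, and the part of low gene detection in this was not tested.

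**Figure D4:**
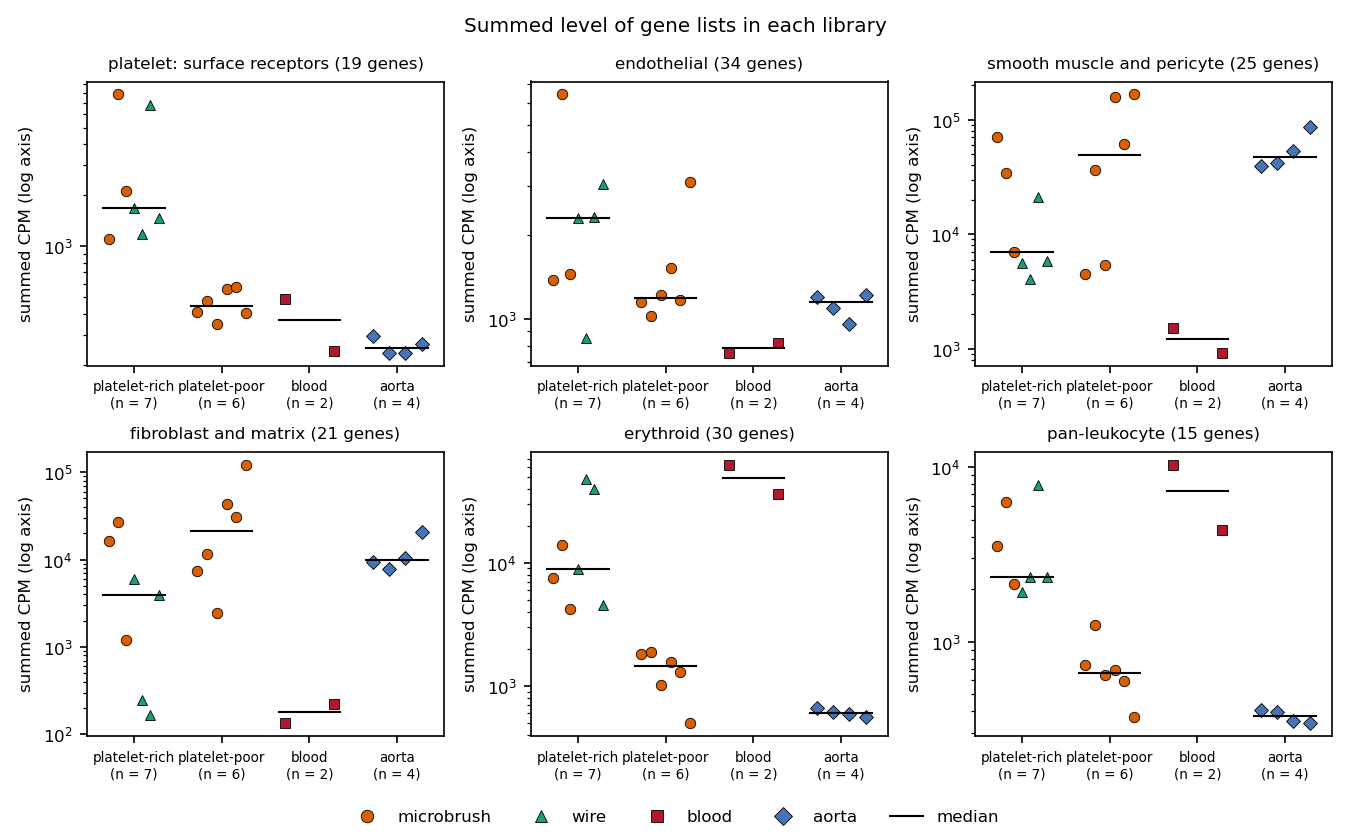
Summed CPM of 6 gene lists in each library, on log axes, with the median of each class as a line. Receptors of platelets and pan-leukocyte genes divide the classes, red cell genes divide them too and reach 62300 and 35850 CPM in blood beside 48200 CPM in wire 2, and muscle, matrix and endothelial sums overlap.

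Muscle and matrix genes were lower in most platelet-rich libraries, but with overlap. Of 24 smooth muscle and pericyte genes 0 were without overlap in either direction, 22 differences were negative and the median was -3.38, or -2.76 relative to the median gene. Of 21 fibroblast and matrix genes the same held for 0 genes, with 18 negative and a median of -2.92, or -2.30 relative. Over all genes 0.364% were lower without overlap. In the microbrush alone the medians were -2.06 and -1.55, and 1 matrix gene was lower without overlap, beside 1.31% of all genes. The muscle genes summed to 4038 to 70560 CPM against 4451 to 166300 CPM, and the matrix genes to 168 to 26760 CPM against 2443 to 120900 CPM. MYH11, the smooth muscle myosin, was 37725 CPM in the platelet-rich microbrush 1 and 48.4 to 1059 CPM in the other 6 platelet-rich libraries. In the platelet-poor class it was 88196 CPM in microbrush 5, 85353 in microbrush 9, 35510 in microbrush 7 and 18739 in microbrush 2, but 2649 in microbrush 3 and 2127 in microbrush 10. ACTA2, smooth muscle actin, was 24.3 to 4328 CPM against 155 to 15265 CPM, with microbrush 1 again the highest of its class. COL3A1, a fibrillar collagen, was 5.85 to 6020 CPM against 425 to 35911 CPM. In bulk RNA, fewer cells of a type and less RNA per cell cannot be told apart.

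The 12 named genes with the largest differences to lower levels in the platelet-rich class, without overlap, were VIPR2 (-3.80), COL11A1 (-3.65), BOK (-3.41), MRAP2 (-3.41), ABCC9 (-3.40), KLHL29 (-3.34), ADAMTS12 (-3.29), TTLL4 (-3.29), WSCD2 (-3.20), PRICKLE2 (-3.12), ZNF503 (-3.05) and SGCA (-3.01). ABCC9, the regulatory subunit of a potassium channel of vascular muscle and pericytes, was at 0 in wires 2 and 3, 0.602 CPM in microbrush 6 and 2.82 CPM in wire 1. It was 20.4 CPM in wire 4, 23.7 in microbrush 8 and 29.2 in microbrush 1, against 36.6 to 90.1 CPM in the platelet-poor class. VIPR2, a receptor of vasoactive intestinal peptide, had the same order, with 0 in wires 2 and 3 and at most 39.5 CPM, against 43.7 to 218 CPM. Wires 2 and 3 and microbrush 6 are the libraries with the fewest genes, and the part of that in these differences was not tested. All wires were platelet-rich, so the choice of these 12 genes placed each wire below each platelet-poor microbrush library. Each gene also had a positive log2 fold change for microbrush against wire over the 13 libraries, a sign largely fixed by that choice. In edgeR the fold changes ran from 1.228 (WSCD2) to 5.495 (ZNF503), none at an adjusted p under 0.05. The part of the device in the class differences was not tested. By the same choice, the platelet-rich microbrush libraries also lay below the platelet-poor ones in these genes, which says nothing about the device.

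Pan-leukocyte genes were higher beside the platelet genes, while lists of single white cell types, given below, were mixed. All 15 pan-leukocyte genes had positive differences, 5 of them without overlap (PTPRC, LCP1, LAPTM5, SPI1 and WAS, beside 1.7% of all genes) and 9 without overlap in the microbrush alone, beside 3.5%. The median was 1.85, or 2.47 relative, and the summed level was 1914 to 7955 CPM in the platelet-rich class against 371 to 1249 CPM. PTPRC, the CD45 phosphatase of all white cells, was 471 to 1699 CPM against 67.1 to 418 CPM. LAPTM5, a lysosomal protein of blood cells, was 262 to 1245 CPM against 22.5 to 75.7 CPM. The sum was 10310 CPM in blood 1 and 4350 CPM in blood 3.

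By white cell type, 4 of 17 neutrophil genes were higher without overlap, beside 1.7% of all genes, with NCF1, MXD1 and ITGAM among them. In the microbrush alone 4 were, beside 3.5%. The median was 1.08, or 1.70 relative, 5 differences were negative, and within pig 248K the median was -0.15. NCF1, a subunit of the oxidase of phagocytes, was 25.0 to 167 CPM against 1.88 to 9.35 CPM. Of 26 T and NK cell genes, 16 B cell genes and 18 monocyte and macrophage genes, 0 were without overlap, and the medians were 0.19, 0.84 and -0.70. Relative to the median gene they were 0.81, 1.46 and -0.08. In the microbrush alone 1 T and NK cell gene and 1 B cell gene were higher without overlap, beside 3.5% of all genes. The T and NK median was negative with RLE (-0.06) and without scaling (-0.66), and the B cell median was negative without scaling (-0.09). CD3E, a T cell receptor subunit, was 24.1 to 69.3 CPM against 2.09 to 56.3 CPM.

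Red cell genes varied widely within the platelet-rich class. Of 27 erythroid genes, GYPC and BNIP3L were higher without overlap, beside 1.7% of all genes, and 10 differences were negative. The median was 0.64, or 1.26 relative, with -0.30 without scaling. In the microbrush alone 2 were higher and 1 lower without overlap, beside 3.5% and 1.31% of all genes, with a median of 0.24. The summed level was 4216 to 48200 CPM in the platelet-rich class against 497 to 1888 CPM. HBB, the beta-globin, was 43605 CPM in wire 2, 27213 in wire 3, 5834 in microbrush 1, 5756 in wire 1, 2264 in wire 4, 1439 in microbrush 6 and 635 in microbrush 8. The platelet-poor libraries held 191 to 967 CPM, so only microbrush 8 overlapped them. Microbrush 6 thus had the second highest TUBB1 level with an HBB level below that of microbrush 1, and wire 2 had the highest HBB level with a PPBP level below that of every other platelet-rich library.

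Of 26 interferon response genes, IFIT1 and HERC5 were higher without overlap, beside 1.7% of all genes, and 2 in the microbrush alone, beside 3.5%. Of these differences 24 were positive, and the median was 1.18, or 1.80 relative. All 36 cytosolic ribosomal protein genes had positive differences with a median of 0.73, but 0 were without overlap and the median was -0.22 without scaling and -0.42 in the liver. The medians were 0.38 for 13 mitochondrially encoded genes (-0.57 without scaling), -0.49 for 22 immediate early genes, -0.93 for 13 hepatocyte genes and -1.13 for 15 kidney genes, each with 0 genes without overlap. The mitochondrial list held protein-coding genes alone, so it does not give the level of all mitochondrial RNA. Relative to the median gene, the medians were 1.35 for the ribosomal, 1.0 for the mitochondrial, 0.13 for the immediate early, -0.31 for the hepatocyte and -0.51 for the kidney genes. In the microbrush alone 1 hepatocyte gene was higher without overlap, beside 3.5% of all genes.

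Blood and aorta are libraries that the TUBB1 rule did not use, and they gave a test of where each of these genes is high. In edgeR's quasi-likelihood test with Benjamini-Hochberg adjustment, 3198 of 17082 genes were higher in blood (18.7%) and 1677 lower (9.82%), with 2 blood and 4 aorta libraries. Of the 279 genes higher in the platelet-rich class without TUBB1, 277 were tested, and 193 (69.7%) were higher and 3 (1.08%) lower in blood, with a median log2 fold change of 1.88 against -0.15 over all genes. Of the 60 genes lower in the platelet-rich class, 0 were higher in blood and 27 (45.0%) lower, with a median of -1.16. For the genes higher in the microbrush alone, 386 of 562 (68.7%) were higher in blood. Without blood 1 the count of 193 was 120, and with blood 2 added it was 3.

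The platelet markers TUBB1, PPBP and ITGB3 were higher in blood than in aorta, but many other platelet genes were not. TUBB1 rose by 2.97 (log2, SE 0.454, edgeR adjusted p = 1.9e-09), PPBP by 2.11 (SE 0.437, adjusted p = 1.45e-05) and ITGB3 by 1.62 (SE 0.418, adjusted p = 0.000757). PPBP and ITGB3 did not pass without blood 1, at 0.86 and 0.53. F13A1 rose by 4.02 (SE 0.514, edgeR adjusted p = 3.9e-13). KDR had a fold change of 0.94 (SE 0.509, edgeR adjusted p = 0.168) and PECAM1 of 0.96 (SE 0.432, adjusted p = 0.0827), neither of which passed, while both passed without blood 3 at 1.33. CDH5 had -0.71 (SE 0.517, edgeR adjusted p = 0.33). Of 65 platelet list genes tested, 27 were higher in blood (41.5%) and 8 lower (12.3%), with a median of 0.26. Of 18 surface receptor genes, 6 were higher (33.3%) and 1 lower, with a median of 0.06. Among the receptors without overlap between the classes, GP9 (-0.02), MPIG6B (0.15) and GP6 (0.32) did not pass. GP1BB, ITGA6, CD226 and TREML1 did, as did ITGB3.

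Among the genes with the largest class difference, ICAM3 rose in blood by 5.53 (SE 0.726, edgeR adjusted p = 1.52e-12) and COTL1 by 4.16 (SE 0.519, adjusted p = 9.23e-14). BNIP3L rose by 4.08 (SE 0.515, edgeR adjusted p = 1.63e-13) and NHERF1 by 4.01 (SE 0.437, adjusted p = 7.98e-18). ADAMTS19 was lower in blood, with -2.37 (SE 0.622, edgeR adjusted p = 0.000949). ABCC9 and BOK of the genes lower in the platelet-rich class were lower in blood too, with -2.68 and -2.73. The genes with the largest fold changes in that comparison were the red cell genes HBB, HBM and ALAS2, with EAF2, EIF1AY, SPINK4, LYZ and KDM5D, on the blood side. On the aorta side they were the muscle and matrix genes ELN, MYH11, COL5A1, SMTN and COL3A1, with PCDHB7, ADIRF and RABGGTA. EIF1AY and KDM5D lie on the Y chromosome, and the pigs differ between these tissues.

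**Figure D5:**
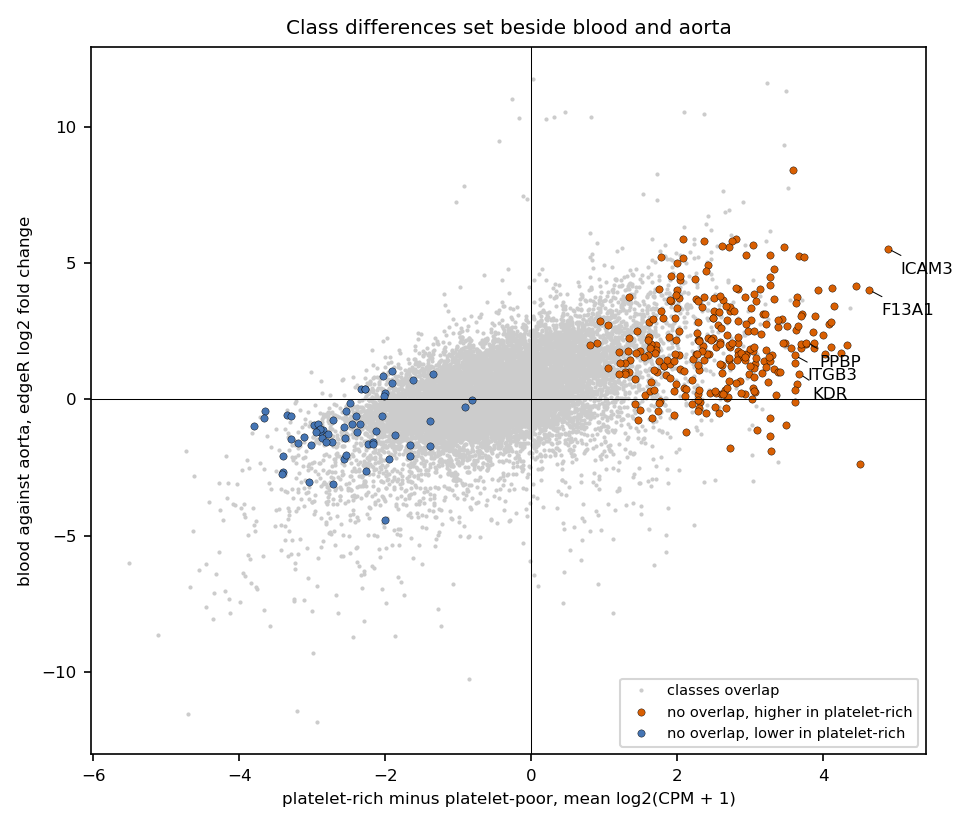
Each point is a gene, with the class difference in mean log2(CPM + 1) on the x axis and the edgeR log2 fold change of blood against aorta on the y axis. Most genes higher in the platelet-rich class without overlap (orange) lie above 0 on the y axis, with ADAMTS19 among those below, and most of those lower in it (blue) lie below 0.

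The labelled devices were compared over the same 13 libraries, since all wires were platelet-rich. In edgeR's test of 9 microbrush against 4 wire libraries, 0 of 16477 genes were higher (0%) and 0 lower (0%) at an adjusted p under 0.05, and the smallest adjusted p was 0.59. At an unadjusted p under 0.05 there were 703 higher and 98 lower, and DESeq2 called 244 higher and 21 lower. PPBP had a log2 fold change of -0.48 (SE 1.17), ITGB3 of -1.06 (SE 1.03), KDR of -1.18 (SE 1.06) and PECAM1 of -0.26 (SE 0.800), each with an edgeR adjusted p of 0.999. Without wire 3 all 4 turned positive, at 0.56, 0.03, 0.09 and 0.20. The smallest p-values were of WFDC1 (8.22), FIBIN (7.58), IGF1R (3.06) and PDGFRB (6.39), the last a receptor of mural cells, all higher on the brush. On the wire side they were of SNCG (-2.66), TENT5C (-3.19), DMTN (-3.32), a red cell membrane protein, and ALAS2 (-3.18), the haem synthesis enzyme of red cells.

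Within the platelet-rich class, 3 microbrush libraries were set against 4 wires, a contrast given by the labels. Of 15004 genes edgeR called 0 higher (0%) and 0 lower (0%), the smallest adjusted p was 1, and DESeq2 called 0 as well. At an unadjusted p under 0.05 there were 69 higher and 17 lower genes. Both arms were chosen by TUBB1 above 1000 CPM, and that choice bears on the platelet levels compared here. The median fold change was 0.39 for granule, 0.55 for receptor, 0.34 for cytoskeleton and 0.28 for signalling genes. KDR had a fold change of 0.04 (SE 1.08), ITGB3 of 0.21 (SE 1.16), PPBP of 0.90 (SE 1.19) and PECAM1 of 0.87 (SE 1.03), each with an edgeR adjusted p of 1, and all were negative without microbrush 6.

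All 24 smooth muscle genes had positive fold changes on the brush within the platelet-rich class, with a median of 2.38, and 19 of 21 matrix genes did, with a median of 1.93, beside 0.13 over all genes. MYH11 had 4.91 (SE 1.54, edgeR adjusted p = 1) and COL3A1 had 4.88 (SE 1.36, adjusted p = 1). COL1A1 (4.49), COL6A1 (3.60) and ITIH5 (3.65), which act in the matrix, also had among the smallest p-values. On the wire side were TRMO (-2.58), DMTN (-2.95), LRR1 (-4.36) and TENT5C (-3.003). The differences did not pass the test, and the spread among the libraries of each device was wide. MYH11 was 37725 CPM in microbrush 1, but 778 in microbrush 8 and 751 in microbrush 6, both below the highest wire. Muscle genes summed to 70560, 34450 and 6960 CPM in microbrush 1, 6 and 8, against 4038 to 21150 CPM in the wires. Matrix genes summed to 16190, 26760 and 1192 CPM, against 168 to 5915 CPM. Microbrush 8 thus lay within the range of the wires in both sums.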

How the data were processed

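Total RNA of 21 pig libraries was extracted with a tissue kit at reduced scale, and the SMARTer Pico kit was used for sequencing libraries, per the labels' protocols. The authors quantified reads with Salmon and used DESeq2 on build Sscrofa11.1, per the submitters' processing notes; versions and annotation are not given in the sources used here. The deposited values are estimated counts per gene, of which 11.9% were not whole, and they were rounded to whole numbers here. The table held 24358 genes, 14692 with a symbol in the supplied gene names and 9666 without.

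CPM were scaled by TMM over all 21 libraries (edgeR 4.0.16, R 4.3.3), and levels on the log2 scale carry a pseudocount of 1, which understates differences of low genes. Genes were kept by filterByExpr at a minimum count of 10 over the 13 libraries. Classes were described by ranges and by whether all libraries of a class lay above all of the other. Genes detected at equal depth were computed with vegan 2.7.1. Tests across genes used only the libraries compared, by edgeR's quasi-likelihood test with robust dispersions, read at an adjusted p under 0.05, with DESeq2 1.42.0 beside it; the test was checked on simulated counts. Blood 2 and microbrush 4, under 5000 genes, were left out.

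The members and gene lists were chosen with earlier results of these data known. Named genes were the 5 markers, the 12 largest class differences without overlap per direction among genes with a symbol and at least 10 CPM in the higher class, abundant list members, and per test the 8 largest passing fold changes per direction, or the 4 smallest p-values where none passed. CDH5, the other list members named, and the measure of likeness to TUBB1 were chosen after values were seen. Promoter sequences were not used here. No pair of the 13 libraries was a copy of another, with a chi-square per degree of freedom of at least 6.28 over 78 pairs. Alternatives covered scaling, pseudocount, filter, the tool, the pig as a block, each device, pig and organ alone, and each library left out.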

Additional observations from a re-analysis of the deposited data

Results flagged for a closer look

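In 58 groups of library values the lowest or highest library was set against the spread of its class. By Dixon's criterion at 95%, 12 stood apart, which chance meets in about 1 of 20 independent groups. The groups reuse the same libraries, and TUBB1, which cut the classes, was among them, so that rate does not test the count of 12. Microbrush 9 gave most of the 12. It stood apart from the other platelet-poor libraries on the log2(CPM + 1) scale with 3.13 for TUBB1, 0.27 for KDR and 8.53 for PECAM1. Its list means on that scale were apart as well, at 2.44 for the erythroid, 1.61 for the neutrophil, 1.96 for the B cell and 0.516 for the kidney list, and so was its total of 7533000 counts.

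In the platelet-rich class, microbrush 1 stood apart with a smooth muscle mean of 9.24, microbrush 6 with an erythroid mean of 3.58, and wire 2 with 3.13% of its counts in haemoglobin genes. Microbrush 7 stood apart in the platelet-poor class with 15.1% of its counts in the pair of unnamed identifiers. Microbrush 4, in no comparison, had 3752 CPM of TUBB1, above both blood libraries, and 48.5% of its counts in that pair.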

How the results depend on the processing

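Class counts moved with the scaling and the libraries. Genes lower without overlap were 213 with RLE over the 13 libraries, and without scaling 99 were higher and 683 lower, with a platelet median of 1.21; the median of all genes was then -0.81 and -1.30. Of the 280 higher genes, 262 were shared with TMM over the 13 libraries, 183 with RLE and 97 without scaling. Higher and lower genes were 577 and 216 in the microbrush alone; for pig 243K they were 927 and 726, for pig 248K 1326 and 2149, for the kidney 1027 and 1198, and for the liver 913 and 1712, where fewer libraries make non-overlap easier. Leaving out each library in turn, which cannot lower these counts, gave 282 to 384 higher and 66 to 207 lower genes. The platelet medians were then 1.82 to 2.29. Adding microbrush 4 gave 222 and 60. Chosen after seeing the data, leaving out wires 2 and 3 gave 391 and 86, and leaving out the unnamed identifiers 264 and 79.

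For microbrush against wire DESeq2 called 244 and 21 genes where edgeR called 0, and within the platelet-rich class edgeR without a filter called 12; the cause was not tested. With the pig as a block edgeR called 0 in both. Leaving out each wire gave fold changes over 13 libraries of -0.85 to 0.56 (PPBP), -1.45 to 0.027 (ITGB3), -1.57 to 0.094 (KDR) and -0.51 to 0.20 (PECAM1). Within the platelet-rich class, leaving out each library gave -0.29 to 1.85 (PPBP), -0.61 to 1.29 (ITGB3), -0.89 to 1.31 (KDR) and -0.38 to 1.30 (PECAM1).

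Blood against aorta called 81 higher and 158 lower genes with blood 2 added, 3 of them among those higher in the platelet-rich class. Leaving out each library gave 1373 to 4299 higher, 1115 to 2691 lower and 120 to 218 of that class. A lone blood library is then assumed to vary like the aorta libraries.

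Replicate numbers were given in accession order and pair no samples, so the pig was the block used. The classes rest on 7 and 6 libraries of 2 pigs. Wire 3 and microbrush 6 held the most counts of the 13 libraries and still had 8891 and 10748 genes at equal depth.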
